A study of Saccharomyces cerevisiae with 6 samples.

Results

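The genes of autophagy and the hydrolases of the vacuole were examined in yeast strains that lack MYO1, the gene for the heavy chain of myosin II. The 45 genes, of 6256 on the arrays, were taken by name and were 36 genes with an ATG symbol, the vacuolar hydrolases PEP4, PRB1, PRC1, APE1, APE2, APE3, CPS1 and AMS1, and PBI2, an inhibitor of proteinase B. The array files carry older names for the ATG genes (APG1 for ATG1, AUT7 for ATG8, CVT9 for ATG11), so these 36 were found by matching the systematic name of each spot to the RefSeq gene table, and APE1 was found by its systematic name YKL103C. The 45 genes have 74 of the 10263 gene spots, with 2 spots each for 29 genes and 1 spot for 16 genes.

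Autophagy carries cytoplasm, organelles and selected proteins to the vacuole, the lytic compartment of the yeast cell. A double membrane, built with Atg proteins, closes around the cargo and fuses with the vacuole, where proteases, a lipase and a mannosidase break the contents down and permeases return the products to the cytosol. In yeast the same proteins also run the cytoplasm-to-vacuole targeting (Cvt) pathway, which delivers aminopeptidase I (Ape1) and α-mannosidase (Ams1) to the vacuole in growing cells. Many of these genes are known to be expressed more strongly when nitrogen or carbon is scarce.

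Each of 6 Agilent yeast oligonucleotide arrays set RNA of a myo1Δ strain against RNA of a wild type strain, in separate dyes. Arrays 1 to 3 (the YJR13 arrays) compared YJR13 (MATa trp1 ura3 leu2-3 his3delta1 cyhR ADE+, with myo1delta::HIS5+) with YJR12, a wild type strain of the opposite mating type, MATα, and of the same listed trp1, ura3, leu2-3, his3delta1, ADE+ and cyhR markers. Both are haploid segregants of YJR6 crossed to BY4741, so they need not share the rest of their genome. Arrays 4 to 6 (the YJR6 arrays) compared YJR6 (MATα, myo1delta::HIS5+) with its haploid parent MGD353-46D, which carries the same trp1, ura3, leu2, his3delta1 and cyhR alleles. The cultures grew overnight at 26°C in complete synthetic medium (CSM) or in histidine dropout medium. The labels place YJR6 in the dropout medium, in which a his3 parent without HIS5+ would not be able to grow. The medium of the other strains is not given sample by sample in the sources used here. A sentence of the paper, read in its order, pairs dropout medium with the mutants and CSM with the wild types. On that reading medium and genotype differed together on all 6 arrays. Where they differed together they cannot be told apart. The methods state triplicate biological replicate cultures.

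All values below are log2 ratios of myo1Δ over wild type, after background correction and loess normalization within each array, and each gene is the mean of its spots. A gene is called here when its mean over the 6 arrays differed from 0 at an adjusted p of 0.05 (limma, Benjamini-Hochberg over all 6256 genes). MYO1 itself was lower on every array: its log2 ratio was -2.11, -1.45 and -1.69 on the YJR13 arrays and -3.53, -1.46 and -2.77 on the YJR6 arrays. The SD of the log2 ratios over all genes was 0.669 to 1.16 per array, lowest on array 3 and highest on array 4. Across genes, array 3 correlated with the other arrays at r of 0.144 to 0.477. On arrays 1 to 3 most genes that mark mating type followed the genotypes. STE2, the α-factor receptor of MATa cells, had log2 ratios of 1.34, 2.29 and 1.14 there, BAR1, STE6, MFA1 and MFA2 also lay above 0, and SAG1, STE3, MF(ALPHA)1 and MF(ALPHA)2, which are expressed in MATα cells, lay below 0. The exception was AGA2, a subunit of the a-agglutinin of MATa cells, at -0.01, 0.39 and 0.14. On arrays 4 to 6, between strains of the same mating type, the genes of MATα cells did not move as one. SAG1, the α-agglutinin, had log2 ratios of 0.08, 1.34 and 3.89, whereas STE3, the a-factor receptor, had -1.61, -0.31 and 0.62 and MF(ALPHA)1, an α-factor gene, had -2.18, -0.51 and 1.00. The part of mating type in the values of the 45 genes was not tested.

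Of the 45 genes, 19 were up regulated (42.2%), where 14.2% of all genes were called higher. No member was called lower (0 of 45 in limma), where 12.9% of all genes were, and 1 member, ATG27, was lower at an unadjusted p of 0.05, where 19.1% of all genes were. The mean log2 ratio was above 0 for 42 of the 45 genes and below 0 for ATG27, PBI2 and ATG31. The median over the 45 genes was 0.55, beside 0.000785 over all genes. By array that median was 0.33, 0.74, 0.23, 0.83, 0.46 and 0.53 on arrays 1 to 6, so it lay above 0 on every array and was lowest on array 3. The RNA came from whole cultures, so more cells in a given state and more RNA per cell cannot be told apart. Of the 44 members with a value on all arrays, 21 were higher on all 6 (14.2% of all genes were) and 1, ATG27, was lower on all 6 (13.9% of all genes were).

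The 19 up regulated genes were 15 ATG genes and 4 hydrolases, and their folds ran between 1.31 and 6.29. At a stricter adjusted p of 0.01 the count was 4, namely PEP4, ATG39, ATG4 and AMS1 (8.89% of members, where 3.47% of all genes were called higher). At the unadjusted p of 0.01 in the methods it was 18 (12.9% of all genes were higher). Leaving out array 2 brought the number of called members to 7, leaving out array 4 to 8 and leaving out array 6 to 9, where 6.25%, 6.99% and 7.3% of all genes were called higher. Leaving out array 3 gave 21, where 16.3% of all genes were.

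**Figure D1:**
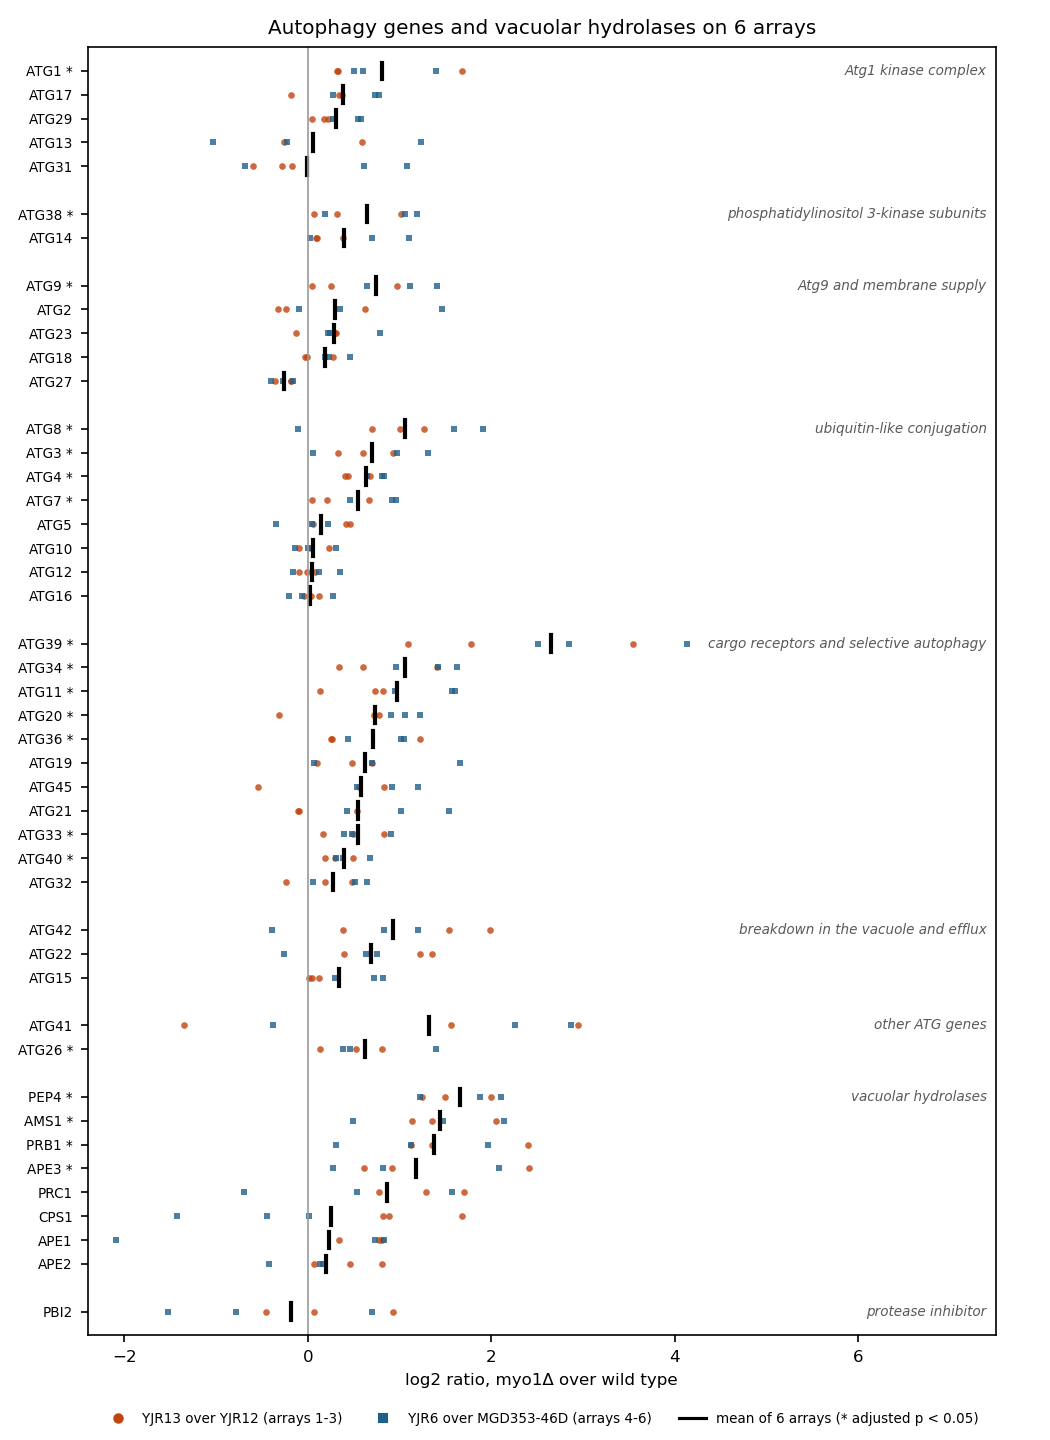
Each row is a gene and each point its log2 ratio of myo1Δ over wild type on 1 array, with circles for YJR13 over YJR12 (arrays 1 to 3), squares for YJR6 over MGD353-46D (arrays 4 to 6) and a black bar for the mean. Genes are grouped by role and an asterisk marks the 19 genes called at an adjusted p of 0.05; 42 of the 45 bars lie to the right of 0.

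The hydrolases had the highest median of the role groups in the main fit, with 4 of 8 genes up regulated and a median log2 ratio of 1.02. Their sizes depended on the normalization. With median normalization in place of loess PEP4 averaged 1.18, AMS1 1.31, PRB1 1.28, APE3 0.59 and PRC1 0.24, and APE1 changed direction. The median of the group was not taken under that setting. PEP4 (YPL154C) encodes proteinase A, the aspartyl protease that activates the other vacuolar proteases. Its log2 ratios were 1.50, 2.00 and 1.24 on the YJR13 arrays and 2.11, 1.23 and 1.88 on the YJR6 arrays, so every array showed a rise of more than 2-fold. The mean was 1.66 (SE 0.15, n = 6 arrays, adjusted p = 0.00246), or 3.16-fold, and by its p-value PEP4 ranked 27 of 6256 genes. Relative to local background its signal was 8.42 to 28.2 in the myo1Δ channels and 2.98 to 17.8 in the wild type channels, well clear of the negative control spots.

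PRB1 (YEL060C), the subtilisin-type proteinase B that Pep4 activates, had log2 ratios of 1.36, 2.40 and 1.12 on the YJR13 arrays and 1.12, 1.96 and 0.31 on the YJR6 arrays. Its mean was 1.38 (SE 0.26, n = 6, adjusted p = 0.0119), and array 6 gave the smallest rise. AMS1 (YGL156W), the α-mannosidase that trims glycans in the vacuole, had log2 ratios of 1.14, 2.06 and 1.35 on the YJR13 arrays and 1.47, 0.49 and 2.14 on the YJR6 arrays. It averaged 1.44 (SE 0.22, n = 6, adjusted p = 0.00645) and was above 0 on every array. APE3 (YBR286W), aminopeptidase Y, was the most uneven of the 4, with 0.92, 2.41 and 0.61 on the YJR13 arrays and 2.08, 0.82 and 0.27 on the YJR6 arrays. Its mean of 1.18 (SE 0.30, n = 6, adjusted p = 0.0285) was no longer called with median normalization or without array 1, 2, 4 or 5.

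The other 4 hydrolases were not called. PRC1 (YMR297W), carboxypeptidase Y, had log2 ratios of 0.78, 1.29 and 1.70 on the YJR13 arrays and 1.58, -0.70 and 0.53 on the YJR6 arrays. Array 5 alone lay below 0, and the mean was 0.86 (SE 0.31, n = 6, adjusted p = 0.0816). APE1 (YKL103C), the main cargo of the Cvt pathway, had 0.34, 0.81 and 0.78 on the YJR13 arrays and 0.83, -2.08 and 0.74 on the YJR6 arrays. The other 5 arrays thus lay within a narrow band above 0 and array 5 far below it, and the mean over all 6 was 0.23 (SE 0.40, adjusted p = 0.705). On array 5 the APE1 spot was 21.9 times its background in the YJR6 channel, against 69.7 times in the MGD353-46D channel, so both signals were strong and the spot carried no flag.

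CPS1 (YJL172W), carboxypeptidase S, had log2 ratios of 1.68, 0.88 and 0.82 on the YJR13 arrays and -1.42, -0.44 and 0.01 on the YJR6 arrays. Its difference between the strain pairs was not called (limma, adjusted p = 0.554). The mean over 6 arrays was 0.25 (SE 0.38, adjusted p = 0.671). APE2 (YKL157W), aminopeptidase II, stayed nearer to 0, with 0.06, 0.81 and 0.46 on the YJR13 arrays and -0.42, 0.14 and 0.16 on the YJR6 arrays, a mean of 0.20 (SE 0.16, n = 6, adjusted p = 0.384). PBI2 (YNL015W), the inhibitor of Prb1, varied in both directions, with -0.46, 0.07 and 0.92 on the YJR13 arrays and 0.70, -1.52 and -0.78 on the YJR6 arrays. Its mean was -0.18 (SE 0.33, n = 6, adjusted p = 0.727).

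Among the ATG genes, those for cargo receptors and other factors of selective autophagy were called most often, with 7 of 11 up regulated and a median log2 ratio of 0.62. ATG39 (YLR312C), the receptor for the nuclear envelope and perinuclear endoplasmic reticulum, had the largest mean of the 45 genes. Its log2 ratios were 1.78, 3.55 and 1.09 on the YJR13 arrays and 4.14, 2.51 and 2.85 on the YJR6 arrays. The mean was 2.65 (SE 0.39, n = 6, adjusted p = 0.00558), or 6.29-fold, and it ranked 81 of 6256 genes by size of rise. The ATG39 spot was 2.93 to 13.6 times its background in the myo1Δ channels and 1.16 to 2.33 times in the wild type channels. It was above the negative control spots in every channel, but near them in the wild type strains, so the size depends on the background correction and was 1.88 with none and 3.51 with an offset of 0.

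ATG34 (YOL083W), the receptor for Ams1, had log2 ratios of 0.34, 1.40 and 0.60 on the YJR13 arrays and 1.62, 1.42 and 0.96 on the YJR6 arrays, with a mean of 1.06 (SE 0.19, n = 6, adjusted p = 0.0104). It was up regulated together with its cargo AMS1. ATG19 (YOL082W), the receptor for both Ape1 and Ams1, was above 0 on all 6 arrays but was not called (mean 0.62, SE 0.21, adjusted p = 0.0694). ATG11 (YPR049C), the scaffold that recruits receptors and their cargo, had 0.82, 0.74 and 0.13 on the YJR13 arrays and 1.58, 1.61 and 0.96 on the YJR6 arrays. Its mean was 0.97 (SE 0.20, n = 6, adjusted p = 0.0168), and its difference between the strain pairs was not called (limma, adjusted p = 0.585).

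The receptors for single organelles moved to different extents. ATG36 (YJL185C), the receptor for peroxisomes, had log2 ratios of 0.27, 1.22 and 0.26 on the YJR13 arrays and 1.01, 1.05 and 0.44 on the YJR6 arrays, with a mean of 0.71 (adjusted p = 0.0229). ATG40 (YOR152C), the receptor for cortical endoplasmic reticulum, had a smaller but even rise, with 0.30, 0.49 and 0.19 on the YJR13 arrays and 0.68, 0.38 and 0.31 on the YJR6 arrays, and a mean of 0.39 (adjusted p = 0.0255). Its spot was dim and not above the negative controls in YJR12 on array 3, and the call was lost with every flagged spot left out (adjusted p = 0.119) and with median normalization (adjusted p = 0.26). ATG33 (YLR356W), a mitochondrial protein needed for mitophagy, had 0.16, 0.83 and 0.49 on the YJR13 arrays and 0.91, 0.40 and 0.48 on the YJR6 arrays, with a mean of 0.55 (adjusted p = 0.0197). All 3 were higher on every array. ATG32 (YIL146C), the mitophagy receptor, was not called, with log2 ratios between -0.24 and 0.65 and a mean of 0.28 (adjusted p = 0.175). ATG45 (YIL024C), the glycogen receptor, averaged 0.58 and was below 0 on array 3 alone (adjusted p = 0.0906).

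ATG20 (YDL113C), a sorting nexin of the Cvt pathway, had 0.73, 0.78 and -0.31 on the YJR13 arrays and 0.90, 1.06 and 1.23 on the YJR6 arrays. Its mean was 0.73 (SE 0.20, n = 6, adjusted p = 0.0353) and array 3 was the only array below 0. ATG21 (YPL100W), which binds phosphatidylinositol 3-phosphate and is needed for the Cvt pathway, was not called over 6 arrays. Its log2 ratios were 0.53, -0.11 and -0.10 on the YJR13 arrays and 1.54, 0.43 and 1.02 on the YJR6 arrays, with a mean of 0.55 (SE 0.23, adjusted p = 0.119).

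Of the 8 genes of the ubiquitin-like conjugation systems, 4 were up regulated, and these were ATG8 with the enzymes ATG3, ATG4 and ATG7. The branches of Atg8 and Atg12 were not tested against each other. ATG8 (YBL078C), the ubiquitin-like protein that is joined to the lipid of the growing membrane, had log2 ratios of 0.70, 1.26 and 1.00 on the YJR13 arrays and 1.60, -0.10 and 1.91 on the YJR6 arrays. Array 5 lay near 0 and the other arrays at 0.70 or more, and the mean was 1.06 (SE 0.26, n = 6, adjusted p = 0.0243). ATG4 (YNL223W), the protease that processes Atg8, had the steadiest rise among the 4, with 0.40, 0.43 and 0.68 on the YJR13 arrays and 0.81, 0.83 and 0.65 on the YJR6 arrays. It averaged 0.63 (SE 0.10, n = 6, adjusted p = 0.00645).

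ATG3 (YNR007C), the E2-like enzyme of Atg8, had log2 ratios of 0.93, 0.33 and 0.60 on the YJR13 arrays and 0.97, 0.06 and 1.31 on the YJR6 arrays, with a mean of 0.70 (adjusted p = 0.0266). ATG7 (YHR171W), the E1-like enzyme of both branches, had 0.21, 0.67 and 0.05 on the YJR13 arrays and 0.92, 0.96 and 0.46 on the YJR6 arrays, with a mean of 0.55 (adjusted p = 0.0344). Both were above 0 on every array. ATG12, its E2-like enzyme ATG10, and the partners ATG5 and ATG16, which together form the Atg12 branch, had means of 0.05, 0.06, 0.14 and 0.02 and were not called (adjusted p between 0.443 and 0.896). ATG10 and ATG16 were, like ATG14, ATG29 and ATG40, not above the negative controls on every array. ATG12 was above them on every array but near. Its brighter spot was 1.18 to 1.34 times background in the myo1Δ channels and 1.13 to 1.35 times in the wild type channels. Small changes in ATG10, ATG12 or ATG16 may therefore not have been detectable.

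In the Atg1 kinase complex, which starts the formation of the autophagosome, 1 of 5 genes was up regulated. ATG1 (YGL180W), the kinase, had log2 ratios of 0.33, 1.68 and 0.32 on the YJR13 arrays and 0.51, 0.61 and 1.40 on the YJR6 arrays. It was higher on every array, with a mean of 0.81 (SE 0.21, n = 6, adjusted p = 0.0321), but was called in only 2 of the 6 fits that left out an array. The scaffold ATG17 and its partner ATG29 averaged 0.39 and 0.31 (adjusted p = 0.0836 and 0.0683). ATG13, the regulatory subunit, had a value on 5 arrays, since its spot on array 1 was marked poor, and these ran between -1.03 and 1.23 with a mean of 0.06 (adjusted p = 0.909). ATG31, the third scaffold protein, averaged -0.01 (adjusted p = 0.985), with values on both sides of 0.

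Of the subunits particular to the phosphatidylinositol 3-kinase of autophagy, ATG38 (YLR211C) was up regulated, with 0.32, 1.02 and 0.07 on the YJR13 arrays and 0.19, 1.05 and 1.20 on the YJR6 arrays and a mean of 0.64 (adjusted p = 0.0429). ATG14, which directs the complex to autophagy, averaged 0.40 (adjusted p = 0.113). Of the 5 genes for Atg9 and the supply of membrane, ATG9 (YDL149W), the membrane protein whose vesicles seed the autophagosome, was up regulated. It had log2 ratios of 0.25, 0.97 and 0.05 on the YJR13 arrays and 0.65, 1.41 and 1.11 on the YJR6 arrays, with a mean of 0.74 (SE 0.19, n = 6, adjusted p = 0.0306). The lipid transfer protein ATG2, its partner ATG18 and the Atg9 trafficking factor ATG23 averaged 0.30, 0.19 and 0.29 and were not called (adjusted p between 0.133 and 0.40).

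ATG27 (YJL178C), a membrane protein of Atg9 trafficking, ran the other way from its group. Its log2 ratios were -0.36, -0.19 and -0.18 on the YJR13 arrays and -0.40, -0.27 and -0.16 on the YJR6 arrays. All 6 lay close together below 0, and the mean was -0.26 (SE 0.08, adjusted p = 0.0567), just outside the threshold. It was chosen for description after its values were seen.

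The genes for the last steps were not called in spite of a median log2 ratio of 0.68. ATG42 (YBR139W), a carboxypeptidase of the vacuole, averaged 0.93 (adjusted p = 0.0588), ATG22, an exporter of amino acids from the vacuole, averaged 0.68 (adjusted p = 0.0529), and ATG15, the lipase that opens the autophagic bodies, averaged 0.34 (adjusted p = 0.120). ATG42 and ATG22, like PRC1, were below 0 on array 5 and above 0 on the other 5 arrays. ATG26 (YLR189C), the sterol glucosyltransferase, was up regulated, with 0.53, 0.81 and 0.14 on the YJR13 arrays and 1.40, 0.39 and 0.46 on the YJR6 arrays and a mean of 0.62 (SE 0.17, n = 6, adjusted p = 0.0344). ATG41 (YPL250C), a partner of Atg9, had the widest spread of the 45 genes. Its log2 ratios were 2.95, 1.56 and -1.35 on the YJR13 arrays and 2.87, 2.26 and -0.37 on the YJR6 arrays, and its mean of 1.32 (SE 0.62, adjusted p = 0.151) did not pass the test although it was larger than that of ATG8.

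The strength of these calls differed from gene to gene. PEP4, ATG39, ATG4, AMS1, ATG34, PRB1 and ATG11 were called with each of the 6 arrays left out in turn and at the same threshold under every other processing that gave them a value. The other 12 each lost the call without at least 2 of the arrays, and ATG7, ATG20, ATG26, ATG38 and ATG40 kept it without only 1 of the 6. Sizes also depended on the background correction for further genes that were dim in the wild types. Without correction and with an offset of 0 the means were 0.26 and 1.09 for ATG33 and 0.32 and 1.33 for ATG36. They were 0.29 and 1.2 for ATG38, 0.60 and 1.68 for ATG34 and 0.18 and 1.04 for ATG40.

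**Figure D2:**
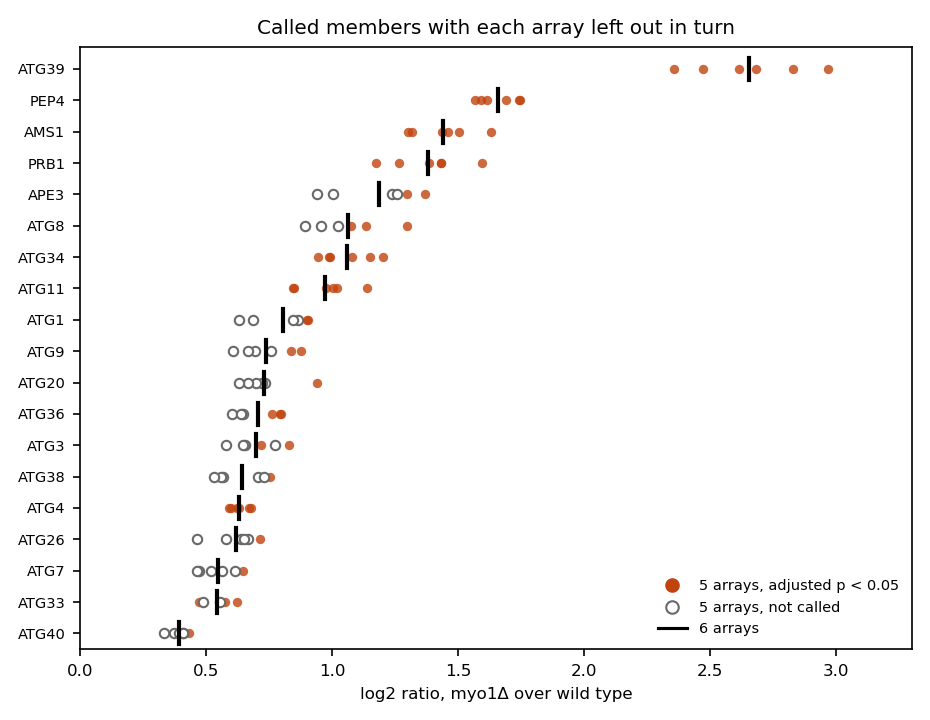
For each of the 19 called genes, the black bar is the mean log2 ratio of myo1Δ over wild type on 6 arrays and each circle the mean on 5 arrays with 1 left out, filled where the adjusted p was under 0.05. The 7 genes ATG39, PEP4, AMS1, PRB1, ATG34, ATG11 and ATG4 have filled circles only.

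The strain pairs were then fitted apart, with 3 arrays each and a shared estimate of the spread. In YJR13 over YJR12, 1 member was up regulated, PEP4 (log2 ratio 1.58, SE 0.23, adjusted p = 0.0434), where 0.576% of all genes were called higher. In YJR6 over MGD353-46D, 11 members were up regulated, where 9.94% of all genes were called higher. These were ATG39 (3.17, SE 0.52), PEP4 (1.74, SE 0.23), ATG11, AMS1, ATG34, ATG20, ATG9, ATG21, ATG7, ATG4 and ATG15, with adjusted p between 0.017 and 0.0414. No member was called lower in either pair by limma, where 0.671% of all genes were with YJR13 and 8.2% with YJR6. At an unadjusted p of 0.05 the count of lower members was also 0 in each pair, where 10.7% of all genes were lower with YJR13 and 16.9% with YJR6. The count of 11 on the YJR6 arrays was 0 without array 4 and 0 without array 6, where 0% of all genes were called higher as well, and 5 without array 1 (4.83% of all genes), which changes the shared spread alone. The count of 1 on the YJR13 arrays was 0 without any of arrays 1, 2, 3, 4 and 6, where 0.0639% to 0.4% of all genes were called higher, and 2 without array 5 (1.74% of all genes).

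A larger count in one pair does not show that the pairs differ, so the difference was tested for each gene. None of the 45 differed between the pairs at an adjusted p of 0.05 (0.0639% of all genes did), and before adjustment 4 had a p under 0.05 (7.56% of all genes had). These were CPS1, higher on the YJR13 arrays than on the YJR6 arrays, and ATG11, ATG15 and ATG21, lower on the YJR13 arrays. CPS1 had the largest difference, with a mean log2 ratio of 1.13 on the YJR13 arrays and -0.62 on the YJR6 arrays, a difference of 1.74 (SE 0.44, adjusted p = 0.554). Its spots were 2.36 to 3.96 times background in YJR13 and 1.14 to 1.42 times in YJR12, whereas on array 4 they were 3.00 and 3.18 times in YJR6 and 14.4 and 13.3 times in MGD353-46D. On array 6 they were 2.93 and 3.52 times in YJR6 and 9.05 and 8.77 times in MGD353-46D. On array 5 they were 3.09 and 2.24 times in YJR6 and 2.09 and 2.38 times in MGD353-46D. These signals are not normalized between the dyes. The median over gene spots was 1.54 times in YJR6 and 2.30 in MGD353-46D on array 6, and 2.03 and 1.50 on array 5. After normalization the log2 ratio of CPS1 was -1.42, -0.44 and 0.01 on arrays 4, 5 and 6. ATG39 averaged 2.14 on the YJR13 arrays and 3.17 on the YJR6 arrays, a difference of -1.03 (SE 0.73, adjusted p = 0.798). ATG21 averaged 0.11 on the YJR13 arrays and 1.00 on the YJR6 arrays, a difference of -0.89 (SE 0.35, adjusted p = 0.618).

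The ATG genes and the hydrolases leaned to opposite sides. The mean on the YJR13 arrays was below that on the YJR6 arrays for 30 of the 36 ATG genes, with medians of 0.32 on the YJR13 arrays and 0.61 on the YJR6 arrays. For the hydrolases it was above that on the YJR6 arrays for 7 of 8, with medians of 1.28 on the YJR13 arrays and 0.76 on the YJR6 arrays. Over all genes the YJR13 pair was the higher for 3061 and the lower for 3194. That split is no baseline here, since most members lay above 0 and the spread differed by array. The SD over all genes was 0.738, 0.995 and 0.669 on arrays 1 to 3 and 1.16, 0.876 and 0.997 on arrays 4 to 6. With scaling between arrays, 8 members were called higher with YJR13 (6.49% of all genes) and 4 with YJR6 (3.55%). The part of array scale in the leaning was not tested. This leaning is a description, since no single member passed the test of the difference. Array 5 of the YJR6 pair had 3 of the 8 hydrolases below 0, APE1, CPS1 and PRC1, and array 4 had 2, CPS1 and APE2, while no hydrolase was below 0 on the 3 arrays of the YJR13 pair.

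**Figure D3:**
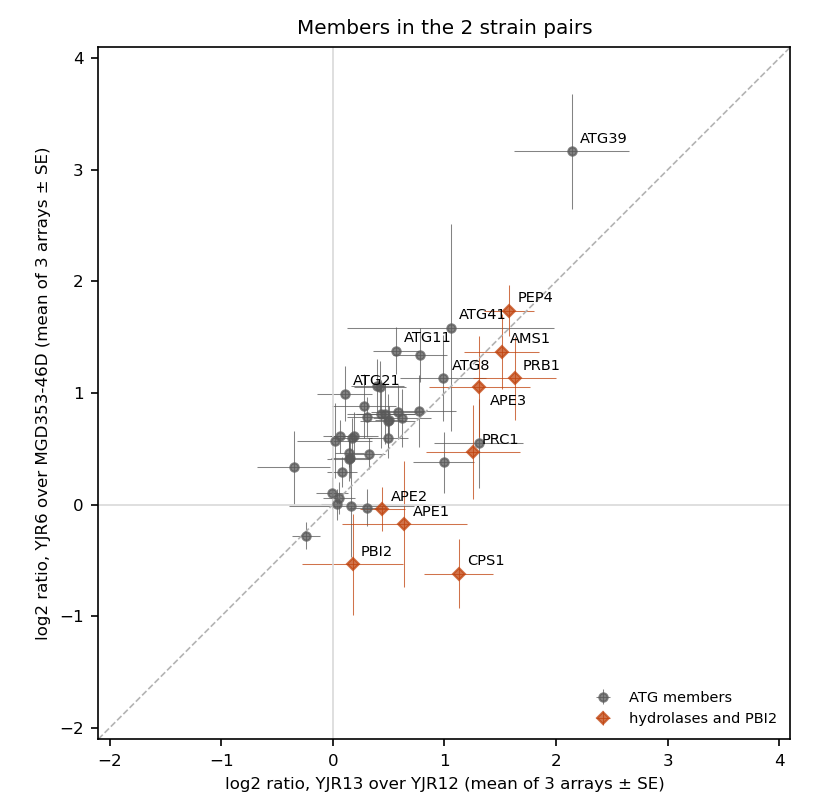
Each point is a gene, with its mean log2 ratio in YJR13 over YJR12 on the horizontal axis and in YJR6 over MGD353-46D on the vertical axis. Each mean is over 3 arrays. Bars are 1 moderated SE from a spread shared by both pairs, so they do not show the spread within a pair. Most ATG genes (grey circles) lie above the dashed line of equal ratios, and 7 of the 8 hydrolases (red diamonds) lie below it.

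Genes that act around the pathway were set beside the members. Of 30 upstream regulators of autophagy, 8 were up regulated and 0 were called lower (median log2 ratio 0.15), where 14.2% of all genes were called higher and 12.9% lower. They included SIN3, a subunit of the Rpd3 histone deacetylase, at 1.19 (SE 0.15, adjusted p = 0.00421), and TPK2 and BCY1, a catalytic and the regulatory subunit of protein kinase A, which holds autophagy down in rich medium, at 0.89 and 0.88. Other subunits of these complexes were not called and lay below 0, with means of -0.44 for RPD3, the deacetylase itself (lower on 5 of 6 arrays, adjusted p = 0.0803), and -0.32 for TPK3, another catalytic subunit of protein kinase A (lower on 6 of 6, adjusted p = 0.0584). TOR1, the kinase of the nutrient-sensing complex that also restrains autophagy, and its partners LST8 and TCO89 rose by 0.79, 1.28 and 0.45 on the log2 scale. KOG1, another subunit of the Tor1 complex, was not called and averaged -0.21 (lower on 5 of 6 arrays, adjusted p = 0.344). TOR2, the other TOR kinase, was not called either (mean 0.32, adjusted p = 0.141). RIM15, a kinase of entry into quiescence, rose by 0.54. The called genes of this list thus included both inhibitors and promoters of autophagy. Of 14 partners of the phosphatidylinositol 3-kinase and of Cvt trafficking, 1 was up regulated, where 14.2% of all genes were called higher. It was SNX4 (0.40, adjusted p = 0.0265), the sorting nexin that pairs with Atg20. With 1 call nothing is read from the share.

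Of 9 other vacuolar enzymes and protease inhibitors, 3 were up regulated and 0 were called lower (median log2 ratio 0.45), beside the same 14.2% and 12.9% of all genes. TFS1, the inhibitor of carboxypeptidase Y, had log2 ratios of 1.76, 3.29 and 1.51 on the YJR13 arrays and 4.32, 0.76 and 1.70 on the YJR6 arrays (mean 2.22, SE 0.46, adjusted p = 0.0154). PAI3, the inhibitor of Pep4, had 0.77, 2.41 and 1.83 on the YJR13 arrays and 3.69, 1.36 and 2.47 on the YJR6 arrays (mean 2.09, SE 0.35, adjusted p = 0.00872). ATH1, the acid trehalase, had a mean of 1.80 (SE 0.27, adjusted p = 0.00622). The inhibitors of proteinase A and carboxypeptidase Y were therefore higher on every array, whereas PBI2, the inhibitor of proteinase B, had values on both sides of 0.

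**Figure D4:**
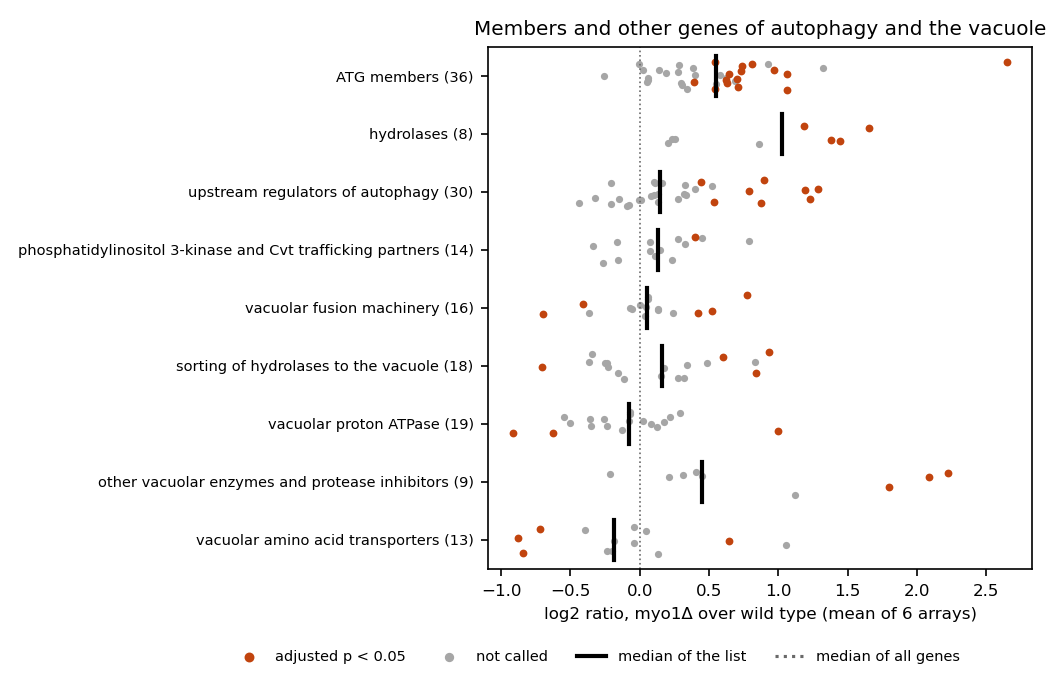
Each point is the mean log2 ratio of a gene over 6 arrays, red where the adjusted p was under 0.05, for the members (upper 2 rows) and for 7 lists of other genes, with the number of genes in brackets and points spread within a row for legibility. Black bars are list medians, at 0.55 for the ATG genes and 1.02 for the hydrolases, and the dotted line is the median of all genes.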

How the data were processed

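The authors scanned the arrays and quantified spots with ImaGene (version 6.0.0 per the file headers). The deposited spot files give the intensity of every spot (mean) and of its surroundings (median) in either channel, on a linear scanner scale. The deposited log2 ratios (Cy5 over Cy3) were made by the authors with limma, by background correction and lowess within each array. They were recomputed from the intensities to within 5e-08, and were used as an alternative. In them genes were not centred, and the array medians were 0.0184, -0.0103, 0.0131, 0.0191, -0.000676 and -0.00179.

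In R 4.3.3 with limma 3.58.1, background was corrected by normexp (offset 50) and ratios were normalized by loess within arrays. Spots with flag 3 (poor) were left out and 544 control spots had no weight. Spots flagged empty were kept, 32 of the 444 spot values of the 45 genes, of which 3 were poor. Per the labels the mutant was the Cy3 sample on arrays 2 and 5 and the Cy5 sample on the rest (the shared scan name of arrays 1 and 2 fits array 2), and signs were turned to myo1Δ over wild type. Spots were averaged per gene, and lmFit and eBayes tested the mean of 6 arrays, each pair and the difference, with Benjamini-Hochberg adjustment over all genes. SE is the moderated standard error. The script was tested on simulated data. Spots were compared with the 95th percentile of 89 negative control spots, and 39 of the 45 genes were above it on all 6 arrays in both channels (86.7%, beside 87.7% of all genes).

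Symbols came from the RefSeq table (R64) by systematic name for 5756 genes, while 500 are under their array names. ATG44 was not analysed here, and VPS30 and SNX4, also known as ATG6 and ATG24, were counted among the partner genes. Promoter motifs were not analysed here. The members and gene lists were chosen with earlier results of these data known, so no list was tested as a set. Values by array are given for called members, the hydrolases, PBI2, ATG1, ATG8 and the 3 members with the largest difference between pairs, and for others (ATG27, ATG41) chosen after their values were seen. Up to 4 genes of each list were named by smallest p, and further genes, called or not, after their values were seen. A gene counted among the upstream regulators is not reported here by name. Alternatives were genes above the median intensity alone, no background correction, plain subtraction, an offset of 0, between-array scaling, median normalization, other flag use, the deposited ratios, a dye effect, slide as a random block, a strain pair term, spots tested singly, other thresholds, and each array left out. The image names in the spot file headers put the arrays 2 to a name under 3 names, and each name was taken as a slide. The paper does not give the slide of each array.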

Additional observations from a re-analysis of the deposited data

Results flagged for a closer look

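The values of 25 named genes by array, and the array medians of the 45 genes, were checked for a lone value at an end of the range, which chance alone picks out in about 1 set of values in 20. In APE1, array 5 lay at -2.08 while the nearest of the other arrays lay at 0.34, a gap of 0.832 of the whole range. In ATG20, array 3 lay at -0.31 and the nearest other array at 0.73, a gap of 0.674 of the range. Each of these genes is above background on that array in both channels. Without array 5 the mean log2 ratio of APE1 was 0.70, and without array 3 that of ATG20 was 0.94.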

How the results depend on the processing

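The median of the members stayed above 0 under all the processing that was tried, while the number of calls moved, and so did the share of all genes called higher, given here in brackets. The count of up regulated members was 4 at an adjusted p of 0.01 (3.47%) and between 7 (6.25%) and 21 (16.3%) with each array left out. Under the other settings it was between 14 with no background correction (11%) or every spot tested on its own (10%) and 24 with slide as a random block (17.6%). The count of down regulated members was 1 with no background correction, where 11% of all genes were called lower, and with slide as a random block (16.2%). It was 0 under the other settings, where the main fit called 12.9% of all genes lower. On the YJR13 arrays the count of 1 (0.576%) was 7 with plain background subtraction (5.31%) and 9 with an offset of 0 (6.52%). It was 6 with median normalization (6.06%) and 8 with scaling between arrays (6.49%). A count of 4 came among genes above the median intensity (6.01%), with every flagged spot left out (2.37%) or with slide as a random block (3.07%). A count of 0 came with a dye effect (0.112%) or at an adjusted p of 0.01 (0.0959%). With each array left out it lay between 0 (0.0639% to 0.4%) and 2 (1.74%). At an unadjusted p of 0.01 it was 5, but the share of all genes was not counted there, so nothing is read from it. On the YJR6 arrays the count of 11 (9.94%) was 7 with median normalization (8.94%), 4 with scaling between arrays (3.55%), 0 at an adjusted p of 0.01 (0%), and between 0 (0%) and 9 (7.91% or 9.48%) with each array left out. The median log2 ratio of the members, 0.55, was 0.29 with no background correction, 0.83 with plain subtraction and 0.88 with an offset of 0, and between 0.46 and 0.62 with each array left out. The causes were not tested.

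Of 468 values of 25 named genes under the alternatives, 396 kept their direction and their side of the threshold, 66 lost the call, 3 gained it and 3 changed direction. The last were APE1 with median normalization (-0.29), CPS1 without array 1 and PBI2 without array 5, none of them called. With each array left out the mean log2 ratio of CPS1 ran between -0.031 and 0.589 and that of PBI2 between -0.399 and 0.0904. Each ratio already sets a myo1Δ sample against a wild type sample on 1 array. No paired analysis was possible between the strain pairs by replicate number, because the numbers 1 to 3 and 4 to 6 are not shared. Slide, as read from the image names, was the block that could be fitted. Each strain pair rests on 3 arrays.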

Other observations

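In 4 lists of genes that act at or on the way to the vacuole membrane, calls were made in both directions, where 14.2% of all genes were called higher and 12.9% lower. With so few calls a list, nothing is read from the shares. Of 16 genes of vacuolar fusion, 3 were up regulated and 2 down regulated, shares near those of all genes, with a median log2 ratio of 0.05. The vacuolar SNAREs NYV1 and VAM3 rose by 0.77 and 0.42 on the log2 scale (adjusted p = 0.011 and 0.0234), and SEC17, the adaptor of SNARE disassembly, rose by 0.52. SEC18, the ATPase that works with Sec17, fell by 0.70 (SE 0.10, adjusted p = 0.00476), with log2 ratios of -1.02, -0.50 and -0.72 on the YJR13 arrays and -0.64, -0.65 and -0.65 on the YJR6 arrays. YKT6, another SNARE, fell by 0.41. Of 18 genes for the sorting of hydrolases to the vacuole, VPS21, VPS8 and VPS27 were up regulated (0.93, 0.60 and 0.84) and APM3, a subunit of the adaptor of the direct route from the Golgi, was down regulated (-0.71, adjusted p = 0.021).

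Of 19 genes of the vacuolar proton ATPase, RAV2, a subunit of its assembly factor, was up regulated (0.99, SE 0.16, adjusted p = 0.00813), and VMA5, a subunit of the pump, and VMA21, which serves its assembly, were down regulated (-0.62 and -0.92). Of 13 genes for amino acid transport across the vacuole membrane, AVT3, an exporter, was up regulated (0.64, adjusted p = 0.0135), and VBA1, YPQ1 and YPQ2, which carry basic amino acids, were down regulated (-0.84, -0.88 and -0.72). The other 9 were not called. Among them RTC2 averaged 1.06 and was higher on 5 arrays (limma, adjusted p = 0.0689), VBA2 averaged 0.13 and VBA3 -0.04. The median log2 ratio was -0.08 for the proton ATPase and -0.19 for the transporters, beside 0.55 for the 45 autophagy and hydrolase genes. These lists were not tested as sets.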
